A study of Mus musculus with 9 samples.

Results

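The nuclear-encoded subunits of oxidative phosphorylation were examined in the dermis of mouse ears. They were taken as the genes of the count table whose symbol begins with Nduf followed by a, b, c, s or v and a digit, equals Sdha to Sdhd, or begins with Uqcr, with Cox4 to Cox8, or with Atp5, leaving out 6 rows named as pseudogenes. This gave 84 of the 52550 genes in the table. By symbol alone, 37 were placed in complex I, 4 in complex II, 8 in complex III, 15 in complex IV and 17 in complex V. Ndufa4 and Ndufa4l2 thus count in complex I and Atp5sl in complex V. The other 3, Cox6a2, Cox7a1 and Cox8b, are the muscle-type subunits of complex IV and are described apart. RNA was sequenced from dermal sheets that had been peeled off the epidermis of wild-type C57BL/6 mice aged 8 weeks, which the study's methods give as male C57BL/6J, and those methods name 2 mice as the source of the sheets without saying whether this holds for each library. In the VAS+H2O group, vaseline was applied to the ears for 5 days, and water was given by gavage for 10 days. The IMQ+H2O group received imiquimod cream, a Toll-like receptor 7 agonist that elicits psoriasis-like inflammation, in place of vaseline, and the same water gavage. The IMQ+XYF group received imiquimod cream and 200 μl of the Xiao-Yin-Fang (XYF) herbal decoction at 23.3 mg/g by gavage for 10 days. Per the study's methods, gavage began before the topical treatment, which was applied in the last 5 of the 10 days. Each group held 3 libraries.

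Oxidative phosphorylation takes place in the inner mitochondrial membrane. Complex I oxidises NADH and complex II oxidises succinate. Both pass electrons through ubiquinone to complex III, and cytochrome c carries them on to complex IV, which reduces oxygen. The proton gradient that complexes I, III and IV build drives complex V, the ATP synthase. All subunits of complex II are encoded in the nucleus, whereas the other complexes also hold subunits encoded in mitochondrial DNA. A few complex IV subunits come as isoforms, of which one is made in most tissues and the other mainly in heart and skeletal muscle.

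Libraries held between 28756305 and 79836881 counts, and the 84 genes took between 0.546% and 0.667% of them. Of these genes, 82 passed the filter on low counts and were tested among 22430 genes. Cox8c and Cox7b2, which are known as testis isoforms, did not pass. Cox8c had no count in any library, which allows a level of up to 0.0376 to 0.104 CPM (counts scaled to a common library total) per library, counting error only. Cox7b2 had 0, 3 and 0 counts in the VAS+H2O libraries, 0, 17 and 15 in the IMQ+H2O libraries, and 9, 0 and 0 in the IMQ+XYF libraries. The tissue label was checked with 7 dermal fibroblast markers, which summed to between 10604 and 25627 CPM in every library. The 7 keratinocyte markers were present as well, at 2061 to 14348 CPM, so the sheets were not free of keratinocyte RNA. They were highest in IMQ+XYF replicate 1, where they exceeded the fibroblast markers, at 11383 CPM. The next highest sum was 6344 CPM, in VAS+H2O replicate 2. All CPM are scaled by TMM factors, which correct for composition.

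Per kilobase of exon, the scale on which genes can be compared, the median level over the members of a complex was 29.5 CPM for complex I, 35.7 for complex II, 60.5 for complex III, 62.8 for complex IV and 36.7 for complex V. Members placed in 1 complex did not share a level. In complex I, Ndufb11, an accessory subunit of the membrane arm, was highest at 84.9 CPM per kilobase, and the lowest was 2.66. In complex II, Sdhd reached 54.2 CPM per kilobase, and in complex III, Uqcr10, a small subunit, reached 111. In complex IV, Cox6b1, a subunit on the intermembrane side, was highest at 206 CPM per kilobase. In complex V, Atp5a1, the alpha subunit of the catalytic head, was highest at 164 CPM per kilobase. These lengths count every annotated exon, so a gene with long minor transcripts is placed too low.

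The levels varied little between libraries. The coefficient of variation over the 9 libraries had a median of 9.94% for the 79 tested members other than the muscle-type ones, with a range from 2.80% to 43.9%. It was 15.3% in the median for the 10893 tested genes with at least 10 CPM, and 26.0% for all tested genes. The muscle-type subunits stood apart, with coefficients from 56.5% to 61.9%. In the map of all tested members, only 1 gene outside the muscle-type subunits departed from its own mean by more than 1 on the log2 scale in any library, and the lowest value of a muscle-type subunit was −3.09 on this scale.

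**Figure D1:**
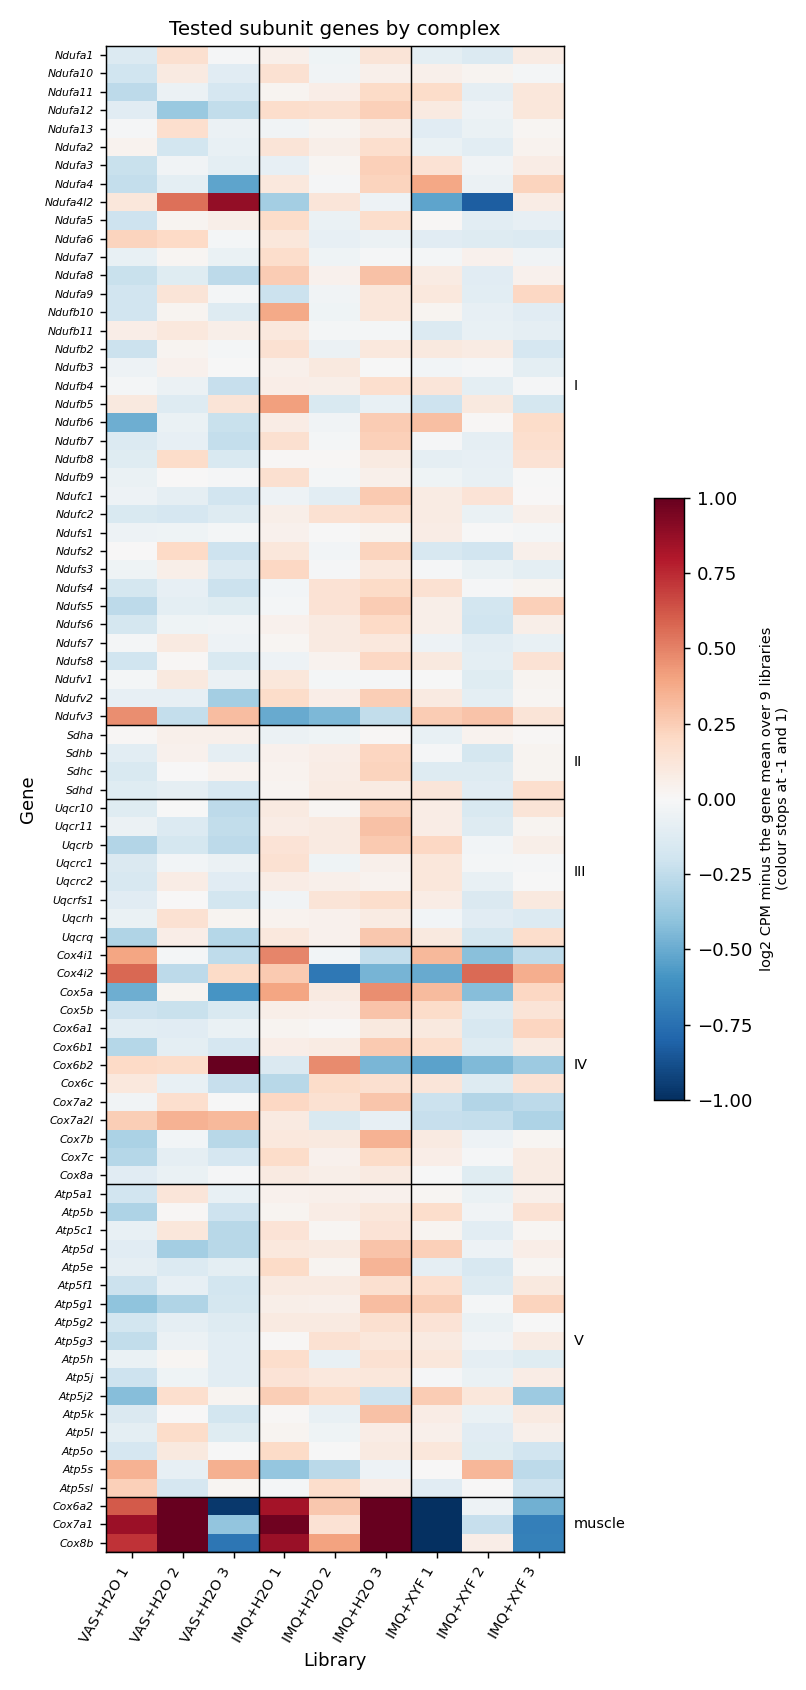
Log2 CPM of the 82 tested subunit genes (rows, by complex) in the 9 libraries (columns), each gene minus its mean over the libraries; red is above and blue below the mean, and the colour stops at −1 and 1. Rows of complexes I to V are pale, mostly bluer in VAS+H2O than in IMQ+H2O, and the 3 muscle-type rows at the bottom are the only group with strong colours in most libraries.

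The effect of imiquimod alone was read from IMQ+H2O against VAS+H2O. Small, mostly higher levels were seen in IMQ+H2O across all 5 complexes, and no single gene passed the test. Of the 82 tested members, 71 had a higher and 11 a lower mean level, with a median log2 fold change of 0.15 against −0.023 over all tested genes. Of all tested genes, 47.7% were above 0 and 52.3% below. The quasi-likelihood test of edgeR, adjusted after Benjamini and Hochberg, called 0 members at an adjusted p of 0.05 and a 2-fold change, against 0.994% of all tested genes, and 0 members at the adjusted p alone, against 1.37%. The lowest adjusted p was 0.0654. At an unadjusted p under 0.05 there were 23 members higher and 3 lower, where 10.1% and 10.8% of all tested genes lay. For 34 members every IMQ+H2O library exceeded every VAS+H2O library, against 15.1% of all tested genes, and for 2 members the reverse held, against 16.5%. DESeq2's Wald test placed 10 members at an adjusted p of 0.05, 8 higher and 2 lower, and 7.61% of all tested genes. These were Ndufa12, Ndufa8, Ndufc2, Uqcrb, Cox7b, Cox7c, Atp5d and Atp5g1, which were higher, and Ndufv3 and Cox7a2l, which were lower. IMQ+XYF replicate 2 enters this comparison through the shared spread, the filter on low counts and the scaling. Without it, edgeR placed 3 members at an adjusted p of 0.05, namely Ndufa12, Ndufa8 and Uqcrb, and 4.29% of all tested genes. The median log2 fold change of the members was then 0.18, against −0.00035 over all tested genes.

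The medians were alike across the complexes, at 0.14 for complex I, 0.15 for complex II, 0.21 for complex III, 0.14 for complex IV and 0.19 for complex V on the log2 scale. All 8 members of complex III and 16 of the 17 of complex V had a higher mean in IMQ+H2O. In complex I these were 31 of 37, in complex II 3 of 4, and in complex IV 10 of 13. Markers of other cell types differed between the same groups. Of 5 tested neutrophil markers, 4 were higher and 3 of them were called. The 5 tested markers summed to 4.22 to 17.1 CPM in VAS+H2O and to 175 to 566 in IMQ+H2O. All 8 tested cartilage markers were lower, 2 of them called, and the 7 keratinocyte markers summed to 3531 to 6344 CPM in VAS+H2O and to 2061 to 3138 in IMQ+H2O. Endothelial markers were higher for 5 of 5, with a median log2 fold change of 0.84 and sums of 433 to 695 CPM in VAS+H2O and 932 to 1005 in IMQ+H2O. Smooth muscle markers were higher for 6 of 7, 5 of them at an unadjusted p under 0.05, with a median of 0.92 and sums of 376 to 632 and 655 to 899 CPM. Of the other lists, higher means were found for 4 of 6 macrophage, 3 of 7 adipocyte, 2 of 4 tested brown adipocyte, 1 of 7 fibroblast and 0 of 5 erythroid markers. The adipocyte markers summed to 406 to 686 CPM in VAS+H2O and to 831 to 929 in IMQ+H2O. Their part in the values of the subunits was not tested. In RNA from whole dermis, more cells of a type and more RNA per cell cannot be told apart.

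What the decoction did, given before and during imiquimod, was read from IMQ+XYF against IMQ+H2O. Most members had a slightly lower mean level in IMQ+XYF, and the muscle-type subunits had a much lower one, but again no single gene passed. Of the 82 members, 12 were higher and 70 lower, with a median log2 fold change of −0.093 against 0.0054 over all tested genes, of which 50.7% were above 0 and 49.2% below. edgeR called 0 members by either rule, against 0.00892% of all tested genes. At an unadjusted p under 0.05 there was 1 member higher and 4 lower, against 6.35% and 5.39% of all tested genes. The groups did not overlap for 17 lower members and 1 higher member, against 8.74% and 9.22%. DESeq2 placed 1 member, Cox7a2, at an adjusted p of 0.05, and 1.98% of all tested genes. Medians lay between −0.096 and −0.063 in complexes I to V, and at −1.58 for the muscle-type subunits. Without IMQ+XYF replicate 2, in which most members stood lower than in the other IMQ+XYF libraries, the median of all members was −0.024, and those of complexes III and V were 0.017 and 0.016. Other cell type markers moved between these groups as well. The keratinocyte markers summed to 3705 to 14348 CPM in IMQ+XYF, above the IMQ+H2O libraries, and 5 of the 7 were higher at an unadjusted p under 0.05. The cartilage markers summed to 574 to 1709 CPM in IMQ+XYF and to 277 to 446 in IMQ+H2O, and 7 of the 8 tested were higher at that p. Other lists were lower along with the subunits. All 5 endothelial markers were lower, with a median of −0.62 and sums of 357 to 896 CPM in IMQ+XYF, below IMQ+H2O. All 7 smooth muscle markers were lower, 4 of them at an unadjusted p under 0.05, with a median of −0.88 and sums of 321 to 659 CPM, which overlapped. All 6 macrophage markers were lower, with a median of −0.44 and sums of 599.6 to 651 CPM, below the 661 to 948 of IMQ+H2O. The adipocyte markers summed to 369 to 719 CPM, below IMQ+H2O, but 3 of the 7 were higher and 4 lower, with a median of −0.0077. Lower means were also found for 5 of 5 erythroid, 5 of 7 fibroblast, 3 of 5 tested neutrophil and 2 of 4 tested brown adipocyte markers. None of these markers was called, where 0.00892% of all tested genes were, and their part in the values of the subunits was not tested. This comparison and the one before share the IMQ+H2O libraries, so high values in these libraries give opposite signs in both.

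Against VAS+H2O, IMQ+XYF was higher for 55 members and lower for 27, with a median log2 fold change of 0.068, where 47.3% and 52.7% of all tested genes lay. At the adjusted p alone, edgeR placed 1 member, Cox7a2l, which was lower, against 2.02% of all tested genes in either direction and 0.745% lower. No member also reached a 2-fold change, against 1.20%. DESeq2 placed 4 members at an adjusted p of 0.05 and 7.89% of all tested genes, namely Cox7a2l and Ndufa4l2, which were lower, and Atp5g1 and Uqcrb, which were higher. Without IMQ+XYF replicate 2 the median was 0.14. In that fit edgeR placed 4 members, Atp5g1, Cox7a2l, Ndufa4 and Uqcrb, and 6.38% of all tested genes. At an unadjusted p under 0.05 there were 9 members higher and 7 lower, against 9.58% and 8.76%. The groups did not overlap for 16 higher and 7 lower members, against 11.7% and 10.3% of all tested genes.

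**Figure D2:**
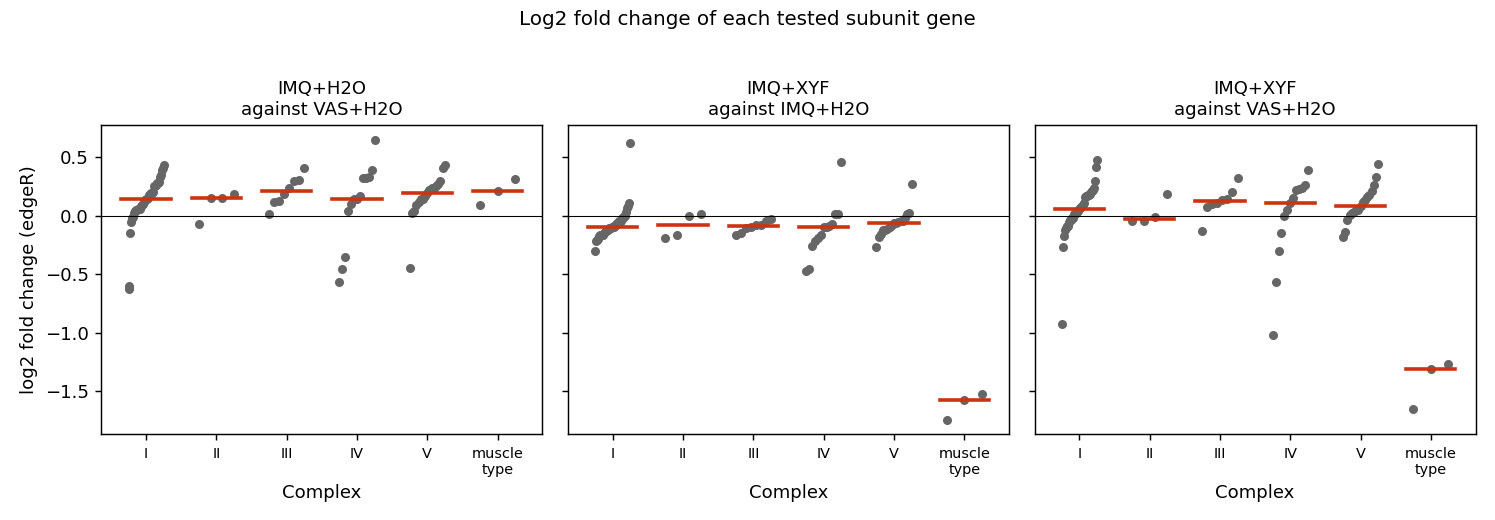
Log2 fold change (edgeR) of each tested subunit gene (grey points) by complex, in the 3 comparisons; the red bar is the median of the complex. Most points of complexes I to V lie above 0 in the left panel and just below it in the middle panel, where the 3 muscle-type points lie between −1.75 and −1.52.

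Complex I is the largest of the complexes, with an arm in the matrix that takes electrons from NADH and an arm in the membrane that pumps protons. Ndufa12 (ENSMUSG00000020022), an accessory subunit, lies on chromosome 10 from 94198720 to 94221443 in GRCm38. Its level was 52.6, 43.8 and 47.8 CPM in VAS+H2O, 64.1, 63.6 and 66.9 in IMQ+H2O, and 60.4, 54.9 and 61.5 in IMQ+XYF. All 3 IMQ+H2O and all 3 IMQ+XYF libraries stood above the VAS+H2O libraries. In IMQ+H2O against VAS+H2O its log2 fold change was 0.43 (SE 0.095, n = 3 per group), and the adjusted p by edgeR was 0.0654, the lowest of the members. Ndufa8, another accessory subunit, had 48.1, 51.6 and 47.1 CPM in VAS+H2O, 67.3, 58.1 and 68.95 in IMQ+H2O, and 59.5, 51.9 and 58.1 in IMQ+XYF. Here too the IMQ+H2O libraries stood above those of VAS+H2O, with a log2 fold change of 0.40 (SE 0.1, edgeR adjusted p 0.0818), and in IMQ+XYF against IMQ+H2O it was −0.20 with overlap.

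Ndufv3, a small subunit of the NADH-oxidising module was among the 6 members of complex I with a lower mean in IMQ+H2O. Its level was 86.2, 53.1 and 77.4 CPM in VAS+H2O, 44.2, 45.8 and 52.6 in IMQ+H2O, and 74.7, 76.3 and 68.5 in IMQ+XYF. The IMQ+H2O libraries were the lowest 3 of the 9, although VAS+H2O replicate 2 lay within 1 CPM of the highest of them. The log2 fold change was −0.60 in IMQ+H2O against VAS+H2O (SE 0.17, edgeR adjusted p 0.105) and 0.62 in IMQ+XYF against IMQ+H2O (SE 0.17, unadjusted p 0.00524, edgeR adjusted p 0.364). It was the member that stood above the IMQ+H2O range in all IMQ+XYF libraries. Ndufs7, an iron-sulfur subunit, had 43.5, 46.7 and 42.5 CPM in VAS+H2O, 44.6, 46.8 and 47.3 in IMQ+H2O, and 42.4, 40.9 and 41.7 in IMQ+XYF, with a log2 fold change of −0.15 in IMQ+XYF against IMQ+H2O (edgeR adjusted p 0.482). Ndufb11 had 80.7, 82.8 and 80.04 CPM in VAS+H2O, 82.9, 75.9 and 76.1 in IMQ+H2O, and 70.2, 73.1 and 72.3 in IMQ+XYF, and its IMQ+XYF libraries were the lowest. The log2 fold change against IMQ+H2O was −0.12 (edgeR adjusted p 0.54).

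Ndufa4l2 is an oxygen-responsive paralog of Ndufa4. Both were first placed in complex I, and Ndufa4 is now known as a subunit of complex IV. Ndufa4l2 had 40.3, 54.5 and 68.3 CPM in VAS+H2O, 29.5, 40.4 and 36.01 in IMQ+H2O, and 25.9, 21.01 and 39.2 in IMQ+XYF. It was highest in VAS+H2O replicates 2 and 3, and its IMQ+XYF libraries lay below all those of VAS+H2O. The log2 fold change was −0.62 in IMQ+H2O against VAS+H2O (SE 0.26, edgeR adjusted p 0.22), and −0.92 in IMQ+XYF against VAS+H2O (SE 0.26, edgeR adjusted p 0.108, DESeq2 adjusted p 0.0271). Per kilobase of exon, Ndufa4l2 made up 34.5% to 72.3% of the pair of paralogs, with 55.9%, 60.9% and 72.3% in VAS+H2O, 42.1%, 52.0% and 45.1% in IMQ+H2O, and 34.5%, 36.8% and 47.2% in IMQ+XYF. The VAS+H2O shares lay above all others. Ndufa4 itself, named here after its values were seen, had 40.1, 44.2 and 32.96 CPM in VAS+H2O, 51.1, 46.99 and 55.2 in IMQ+H2O, and 61.99, 45.5 and 55.3 in IMQ+XYF. Of the 37 members of complex I, 9 were higher and 2 lower in IMQ+H2O at an unadjusted p under 0.05, against 10.1% and 10.8% of all tested genes. In IMQ+XYF against IMQ+H2O, 1 was higher and 0 lower, against 6.35% and 5.39%.

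Complex II links the citric acid cycle to the respiratory chain, and none of its 4 subunits approached the threshold. Sdha, the flavoprotein that oxidises succinate, was among the steadiest members, with 179, 184 and 184 CPM in VAS+H2O, 170.0, 172 and 179 in IMQ+H2O, and 169, 181 and 178 in IMQ+XYF. Its log2 fold change was −0.067 in IMQ+H2O against VAS+H2O (edgeR adjusted p 0.658) and 0.019 in IMQ+XYF against IMQ+H2O (adjusted p 0.94). Sdhb, the iron-sulfur subunit, had 59.1, 65.6 and 59.6 CPM in VAS+H2O, 65.4, 66.4 and 73.5 in IMQ+H2O, and 62.8, 56.1 and 64.5 in IMQ+XYF. The membrane anchor Sdhc had 59.2, 65.9 and 67.4 CPM in VAS+H2O, 67.5, 69.3 and 76.9 in IMQ+H2O, and 60.1, 59.96 and 67.1 in IMQ+XYF. For both, every IMQ+XYF library lay below the IMQ+H2O libraries, with log2 fold changes of −0.16 and −0.19 and edgeR adjusted p-values of 0.514 and 0.464. Sdhd, the other anchor, had 61.1, 62.5 and 59.3 CPM in VAS+H2O, 67.8, 70.3 and 70.5 in IMQ+H2O, and 72.3, 61.5 and 74.7 in IMQ+XYF, and its groups IMQ+H2O and VAS+H2O did not overlap (log2 fold change 0.19, edgeR adjusted p 0.281).

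Complex III passes electrons from ubiquinol to cytochrome c. Uqcrb (ENSMUSG00000021520), a subunit near the ubiquinone site on chromosome 13 from 66900617 to 66905378, had 63.04, 68.3 and 64.4 CPM in VAS+H2O, 84.97, 82.3 and 92.3 in IMQ+H2O, and 89.05, 75.6 and 80.6 in IMQ+XYF. The 3 VAS+H2O libraries were the lowest of the 9. On the log2 scale the change was 0.41 in IMQ+H2O (SE 0.094, edgeR adjusted p 0.0714, n = 3 per group) and 0.33 in IMQ+XYF, both against VAS+H2O (SE 0.094, edgeR adjusted p 0.112). Uqcr11, a small subunit, had 49.1, 46.4 and 43.1 CPM in VAS+H2O, 53.7, 54.3 and 62.6 in IMQ+H2O, and 53.8, 46.7 and 51.9 in IMQ+XYF, and Uqcrq, which binds next to cytochrome b, had 53.8, 69.2 and 54.4 CPM in VAS+H2O, 71.2, 68.3 and 80.03 in IMQ+H2O, and 70.9, 58.6 and 74.8 in IMQ+XYF. Their log2 fold changes in IMQ+H2O against VAS+H2O were 0.30 and 0.31, with edgeR adjusted p-values of 0.152 and 0.241. Uqcr10 had 59.4, 64.5 and 53.98 CPM in VAS+H2O, 68.7, 65.5 and 75.7 in IMQ+H2O, and 68.03, 58.3 and 70.6 in IMQ+XYF, and its lowest IMQ+H2O library stood just above the highest VAS+H2O library. Uqcrh, the hinge protein beside cytochrome c1, had 118, 138 and 126 CPM in VAS+H2O, 127, 127 and 131 in IMQ+H2O, and 121, 114 and 113 in IMQ+XYF, and its IMQ+XYF libraries lay below those of IMQ+H2O (log2 fold change −0.15, edgeR adjusted p 0.524). All 8 members had a lower mean in IMQ+XYF than in IMQ+H2O, with values from −0.16 to −0.026.

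Complex IV held the member that passed at the adjusted p alone. Cox7a2l (ENSMUSG00000024248), on chromosome 17 from 83501918 to 83517330, encodes a relative of the COX7A subunits that is known to join complexes III and IV into supercomplexes, and C57BL/6 mice are known to carry a short form of its protein. Its level was 174, 187 and 185 CPM in VAS+H2O, 157, 132 and 139 in IMQ+H2O, and 125, 125 and 119 in IMQ+XYF. The 3 groups did not overlap, with VAS+H2O highest and IMQ+XYF lowest. It fell in IMQ+XYF against VAS+H2O, with a log2 fold change of −0.57 (SE 0.092, edgeR adjusted p 0.0309, n = 3 per group), from 182 ± 6.87 to 123 ± 3.70 CPM (SD). In IMQ+H2O against VAS+H2O the value was −0.35 (edgeR adjusted p 0.092) and in IMQ+XYF against IMQ+H2O −0.21 (edgeR adjusted p 0.422), neither past the threshold. The adjusted p stayed under 0.05 without IMQ+H2O replicate 1 (0.0405) and without IMQ+XYF replicate 2 (0.0248), and exceeded it in the 7 fits that left out any other library, where it reached up to 0.119. On the log2 scale the change lay between −0.60 and −0.53 in all 9 of these fits. The adjusted p also exceeded 0.05 when only these groups were fitted (adjusted p 0.0809), with the replicate number as a block (adjusted p 0.0854) and with the skeletal muscle score as a covariate (adjusted p 0.175).

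Cox7a2 (ENSMUSG00000032330), the COX7A isoform of most tissues, on chromosome 9 from 79755361 to 79759878, had the lowest p of all members in IMQ+XYF against IMQ+H2O. Its level was 57.1, 65.9 and 58.5 CPM in VAS+H2O, 67.9, 65.4 and 71.1 in IMQ+H2O, and 50.4, 47.98 and 48.95 in IMQ+XYF. The IMQ+XYF libraries were the lowest 3 of the 9. On the log2 scale the change was −0.47 (SE 0.087), and the unadjusted p was 0.000462. The edgeR adjusted p was 0.355, whereas that of DESeq2 was 0.00362. Against VAS+H2O it was −0.30 (edgeR adjusted p 0.114).

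Cox7b and Cox7c, small subunits at the surface of the complex, were higher in every IMQ+H2O library than in any VAS+H2O library. Cox7b had 76.7, 93.3 and 78.6 CPM in VAS+H2O, 103, 102 and 121 in IMQ+H2O, and 102, 92.05 and 96.8 in IMQ+XYF, with a log2 fold change of 0.39 in IMQ+H2O against VAS+H2O (edgeR adjusted p 0.111). Cox7c had 51.9, 59.5 and 56.2 CPM in VAS+H2O, 71.8, 65.2 and 72.1 in IMQ+H2O, and 66.4, 62.7 and 66.8 in IMQ+XYF, with 0.32 (adjusted p 0.102). Cox6b1 had 119, 135 and 129 CPM in VAS+H2O, 152, 153 and 173 in IMQ+H2O, and 164, 133 and 154 in IMQ+XYF, with 0.32 (adjusted p 0.156). Cox5a, a matrix-side subunit that is named after its values were seen, had the highest log2 fold change of all members in this comparison, 0.65 (SE 0.23, adjusted p 0.163), with 25.1, 36.02 and 23.4 CPM in VAS+H2O, 46.5, 37.6 and 48.6 in IMQ+H2O, and 44.001, 26.3 and 40.8 in IMQ+XYF. Its groups were separated by a narrow gap. Cox4i2, an oxygen-responsive isoform of Cox4i1, had 13.7, 7.67 and 10.5 CPM in VAS+H2O, 11.02, 5.60 and 6.67 in IMQ+H2O, and 6.48, 13.6 and 11.9 in IMQ+XYF and overlapped between all groups. Per kilobase of exon it made up 5.61% to 17.3% of the pair.

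**Figure D3:**
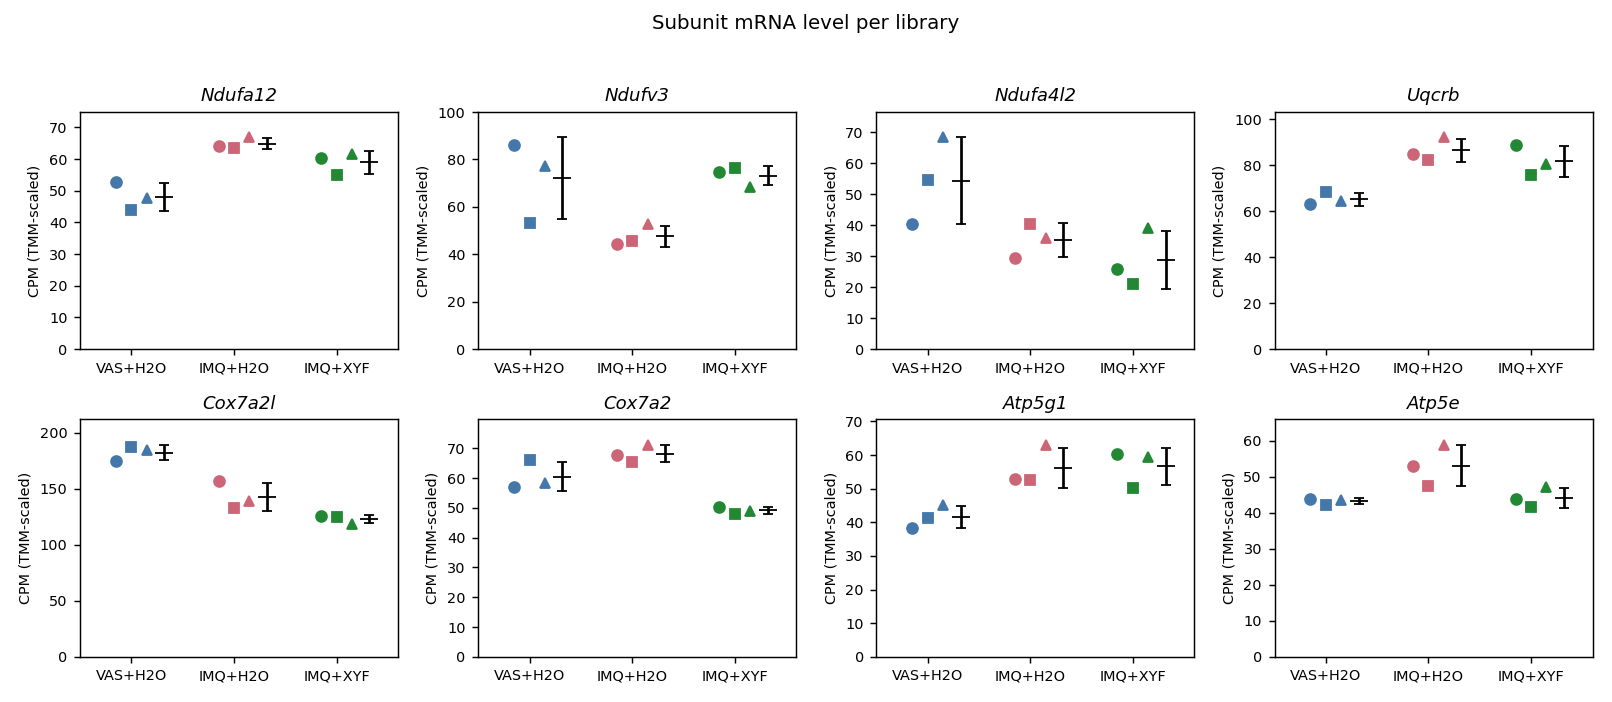
TMM-scaled CPM (linear axis from 0) of 8 subunit genes in each library, with circles, squares and triangles for replicates 1, 2 and 3; the black bar is the mean ± SD of the 3 libraries. Cox7a2l steps down from 174 to 187 CPM in VAS+H2O to 119 to 125 in IMQ+XYF, Cox7a2 is lowest in IMQ+XYF, and Ndufv3 is lowest in IMQ+H2O.

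Complex V couples the proton gradient to ATP synthesis, and 7 of its 17 members were higher in IMQ+H2O than in VAS+H2O at an unadjusted p under 0.05, against 10.1% of all tested genes. Atp5g1, Atp5g2 and Atp5g3 are 3 genes for 1 mature protein, the c subunit of the rotating ring. Atp5g1 (ENSMUSG00000006057), on chromosome 11 from 96068852 to 96075670, had 38.4, 41.3 and 45.1 CPM in VAS+H2O, 52.9, 52.5 and 63.02 in IMQ+H2O, and 60.3, 50.2 and 59.3 in IMQ+XYF, and all VAS+H2O libraries lay below the other 6. On the log2 scale the change was 0.43 in IMQ+H2O (SE 0.12, edgeR adjusted p 0.0971) and 0.44 in IMQ+XYF, both against VAS+H2O (SE 0.12, edgeR adjusted p 0.0892). Atp5g2 had 54.1, 57.5 and 55.99 CPM in VAS+H2O, 65.3, 65.4 and 68.7 in IMQ+H2O, and 67.3, 58.6 and 61.2 in IMQ+XYF, with a log2 fold change of 0.25 in IMQ+H2O against VAS+H2O (adjusted p 0.149). The proportions of the 3 genes were steady. Per kilobase of exon, Atp5g1 supplied 8.40% to 10.8% of the c-subunit mRNA, Atp5g2 32.6% to 35.7% and Atp5g3 54.5% to 57.3%. Processed copies of such short genes are common in the genome, and how reads with several alignments were counted was not stated, so these shares are uncertain.

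Atp5d and Atp5e encode the delta and epsilon subunits of the central stalk. Atp5d had 85.3, 72.9 and 76.2 CPM in VAS+H2O, 99.6, 98.5 and 112 in IMQ+H2O, and 109, 89.1 and 96.8 in IMQ+XYF, with a log2 fold change of 0.41 in IMQ+H2O against VAS+H2O (SE 0.11, edgeR adjusted p 0.0971). Atp5e had 43.8, 42.2 and 43.4 CPM in VAS+H2O, 53.1, 47.4 and 58.8 in IMQ+H2O, and 43.8, 41.6 and 47.1 in IMQ+XYF. The IMQ+H2O libraries were the highest 3 of the 9, with IMQ+XYF replicate 3 just below them. On the log2 scale the change was 0.30 in IMQ+H2O against VAS+H2O (adjusted p 0.15) and −0.27 in IMQ+XYF against IMQ+H2O (unadjusted p 0.0271, edgeR adjusted p 0.386). Atp5j, coupling factor 6 of the outer stalk, had 63.1, 70.6 and 67.8 CPM in VAS+H2O, 80.3, 78.4 and 78.9 in IMQ+H2O, and 72.2, 69.4 and 76.6 in IMQ+XYF, with −0.12 in the latter comparison (adjusted p 0.565). Atp5sl, which the symbol pattern admits although it is known as an assembly factor of complex I rather than a part of the synthase, had 19.6, 14.8 and 16.9 CPM in VAS+H2O, 16.4, 18.8 and 17.5 in IMQ+H2O, and 15.4, 16.7 and 14.5 in IMQ+XYF and overlapped between the groups. Atp5a1 had 451, 558 and 488 CPM in VAS+H2O, 531, 533 and 530.5 in IMQ+H2O, and 522, 492 and 532 in IMQ+XYF, with log2 fold changes of 0.091 and −0.044 in the first and second comparison.

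The muscle-type subunits were the members with the widest spread between libraries. Cox6a2, Cox7a1 and Cox8b replace Cox6a1, Cox7a2 and Cox8a in the complex IV of heart and skeletal muscle. In GRCm38 all 3 lie on chromosome 7, Cox6a2 (ENSMUSG00000030785) from 128205435 to 128206387, Cox7a1 (ENSMUSG00000074218) from 30184144 to 30186078 and Cox8b (ENSMUSG00000025488) from 140898945 to 140900446. Promoter stretches of 280 bases, from 250 bases before the start of transcription to 30 after it, are shown for the members of these pairs that the RefSeq table of GRCm38.p6 holds, so that the muscle-type and the ubiquitous promoters can be read side by side. They are Cox7a1 at chr7:30183921-30184200 on the plus strand, Cox8b at chr7:140900417-140900696 on the minus strand, Cox6a1 at chr5:115348929-115349208 on the minus strand, Cox7a2 at chr9:79759824-79760103 on the minus strand and Cox8a at chr19:7217587-7217866 on the minus strand. Capitals mark matches, on either strand, to the E-box CAGCTG bound by myogenic factors, the core GCGCATGC of nuclear respiratory factor 1, the core CCGGAAGT of ETS factors and the core TNAAGGTCA of estrogen-related receptors, where N is any base.
Cox7a1: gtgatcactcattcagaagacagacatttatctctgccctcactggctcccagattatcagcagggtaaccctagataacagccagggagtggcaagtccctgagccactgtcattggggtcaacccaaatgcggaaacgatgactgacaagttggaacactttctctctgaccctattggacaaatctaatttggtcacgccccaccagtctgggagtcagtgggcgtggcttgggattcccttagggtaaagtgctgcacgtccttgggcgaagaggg
Cox8b: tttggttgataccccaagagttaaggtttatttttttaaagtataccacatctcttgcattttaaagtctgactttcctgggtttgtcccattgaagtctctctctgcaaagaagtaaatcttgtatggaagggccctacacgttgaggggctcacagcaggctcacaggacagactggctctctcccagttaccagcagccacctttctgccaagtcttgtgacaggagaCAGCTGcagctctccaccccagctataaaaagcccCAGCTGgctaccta
Cox6a1: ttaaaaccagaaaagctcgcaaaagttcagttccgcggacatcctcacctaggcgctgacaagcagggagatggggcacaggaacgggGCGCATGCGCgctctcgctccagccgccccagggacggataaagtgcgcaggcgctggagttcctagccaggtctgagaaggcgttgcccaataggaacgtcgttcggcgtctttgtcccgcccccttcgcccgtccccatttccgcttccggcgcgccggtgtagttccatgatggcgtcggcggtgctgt
Cox7a2: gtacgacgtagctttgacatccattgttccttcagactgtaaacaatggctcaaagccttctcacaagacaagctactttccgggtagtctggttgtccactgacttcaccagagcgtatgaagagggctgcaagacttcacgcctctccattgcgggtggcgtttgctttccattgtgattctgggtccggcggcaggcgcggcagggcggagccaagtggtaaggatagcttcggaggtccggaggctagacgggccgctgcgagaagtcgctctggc
Cox8a: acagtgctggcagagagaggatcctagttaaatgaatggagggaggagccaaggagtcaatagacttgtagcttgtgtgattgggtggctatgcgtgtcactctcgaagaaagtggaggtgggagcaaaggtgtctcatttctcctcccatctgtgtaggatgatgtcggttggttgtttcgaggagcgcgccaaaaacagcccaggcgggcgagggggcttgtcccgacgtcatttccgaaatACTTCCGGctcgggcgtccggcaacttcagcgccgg

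Cox8b had an E-box match that began 19 bases before the start and another that began at base 17 after it. Cox6a1 had nuclear respiratory factor 1 matches on both strands that overlap one another, about 160 bases before the start. Cox8a had an ETS match 6 bases before the start, and another that began at base 32, just past the printed stretch. Cox7a1 and Cox7a2 had none of these letters in their windows. Over all members, 66 of the 84 had at least 1 entry in the table, in 71 windows of 300 bases. The nuclear respiratory factor 1 core was found in 10 of the 71 windows, 14.1%, against 2.71% of the 32851 promoters in the table, and the ETS core in 5, 7.04% against 3.89%. The estrogen-related receptor core was found in 3, 4.23% against 1.28%, and the E-box in 6, 8.45% against 16.3%. Members with the nuclear respiratory factor 1 core included Sdhb, Uqcr11, Ndufa8 and Cox6a1. The guanine and cytosine content of the member windows was 57.3% in the median, muscle-type members left out, against 52.7% of all promoters. Such matches describe the letters only.

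The level of Cox6a2 was 25.7, 39.5 and 8.59 CPM in VAS+H2O, 29.9, 20.2 and 41.3 in IMQ+H2O, and 2.51, 16.2 and 12.01 in IMQ+XYF. Cox7a1 had 5.94, 7.98 and 2.51 CPM in VAS+H2O, 6.48, 3.64 and 7.33 in IMQ+H2O, and 0.386, 2.81 and 2.05 in IMQ+XYF, and Cox8b had 8.90, 12.1 and 3.27 CPM in VAS+H2O, 9.82, 7.16 and 11.001 in IMQ+H2O, and 0.759, 5.67 and 3.38 in IMQ+XYF. In all 3 genes the lowest library was IMQ+XYF replicate 1, and VAS+H2O replicate 3 stood far below the other VAS+H2O libraries. IMQ+XYF replicate 1 was also the library with the highest sum of keratinocyte markers, 14348 CPM, and whether this bears on the muscle-type values was not tested. All IMQ+XYF libraries lay below those of IMQ+H2O, whereas VAS+H2O overlapped with both. On the log2 scale the change in IMQ+XYF against IMQ+H2O was −1.58 for Cox6a2 (SE 0.7, edgeR adjusted p 0.424), −1.75 for Cox7a1 (SE 0.67, unadjusted p 0.0294, edgeR adjusted p 0.389) and −1.52 for Cox8b (SE 0.67, edgeR adjusted p 0.424). Without IMQ+XYF replicate 1 the median of the 3 was −1.11, and without IMQ+XYF replicate 2 it was −2.15. In IMQ+H2O against VAS+H2O the log2 fold changes were 0.31, 0.093 and 0.21, all with overlap and with edgeR adjusted p-values of 0.825 or more. Without VAS+H2O replicate 3 they were −0.10, −0.26 and −0.17.

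Of the ubiquitous counterparts, Cox6a1 and Cox8a overlapped between IMQ+XYF and IMQ+H2O, whereas Cox7a2, given above, was lower in every IMQ+XYF library. Cox6a1 had 125, 124 and 129 CPM in VAS+H2O, 137, 136 and 144 in IMQ+H2O, and 144, 121 and 156 in IMQ+XYF, and Cox8a had 94.8, 98.1 and 102 CPM in VAS+H2O, 109, 107 and 109 in IMQ+H2O, and 102, 94.1 and 108 in IMQ+XYF. Their log2 fold changes in IMQ+XYF against IMQ+H2O were 0.014 and −0.096 (edgeR adjusted p 0.969 and 0.663). Per kilobase of exon, Cox6a2 made up 17.5%, 24.7% and 6.44% of the COX6A mRNA in VAS+H2O, 18.3%, 13.3% and 22.9% in IMQ+H2O, and 1.77%, 12.2% and 7.35% in IMQ+XYF. Cox8b made up 13.9%, 17.5% and 5.23% of the COX8 mRNA in VAS+H2O, 13.4%, 10.3% and 14.7% in IMQ+H2O, and 1.26%, 9.39% and 5.09% in IMQ+XYF. The ratio within a library, which does not depend on the scaling, was compared by a two-sided exact permutation test, for which 3 libraries against 3 cannot give a p below 0.1. The mean log2 ratio of Cox6a2 to Cox6a1 was −4.14 ± 1.52 in IMQ+XYF and −2.25 ± 0.476 in IMQ+H2O (SD, n = 3), a difference of −1.90 with an exact p of 0.1. For Cox8b to Cox8a the means were −5.37 ± 1.54 and −3.56 ± 0.300 (exact p 0.1, n = 3). For Cox7a1 to Cox7a2 they were −5.22 ± 1.56 and −3.61 ± 0.483, with overlap (exact p 0.2, n = 3). Adjusted over the 9 ratio tests, these p-values were 0.36.

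**Figure D4:**
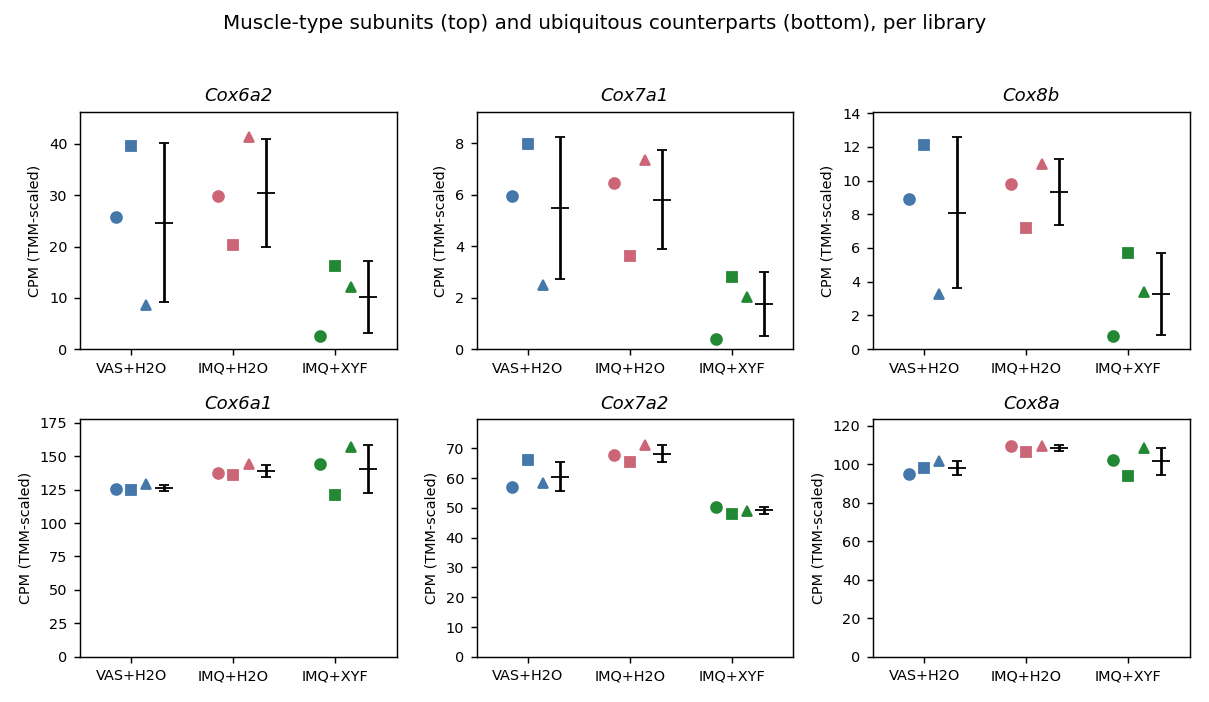
TMM-scaled CPM (linear axis from 0, its own scale in each panel) of the 3 muscle-type subunits in the top row and of their ubiquitous counterparts in the bottom row, with circles, squares and triangles for replicates 1, 2 and 3; the black bar is the mean ± SD of the 3 libraries. The muscle-type subunits spread widely within each group and are lowest in IMQ+XYF, while Cox6a1 and Cox8a stay within 121 to 156 and 94.1 to 109 CPM.

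The skeletal muscle markers of the libraries moved with these genes. The 24 skeletal muscle markers summed to 1102 to 5467 CPM in VAS+H2O, 2457 to 5106 in IMQ+H2O and 282 to 2016 in IMQ+XYF. All 24 were lower in IMQ+XYF than in IMQ+H2O, 14 at an unadjusted p under 0.05, against 5.39% of all tested genes, and none was at 0 in any library. edgeR called 0 of them, against 0.00892% of all tested genes. Acta1, skeletal muscle actin, had 262, 406 and 94.2 CPM in VAS+H2O, 264, 215 and 405 in IMQ+H2O, and 24.3, 122 and 118 in IMQ+XYF. Ckm, muscle creatine kinase, had 102, 131 and 37.4 CPM in VAS+H2O, 75.9, 59.5 and 127 in IMQ+H2O, and 7.98, 37.8 and 39.2 in IMQ+XYF, and Myh4, a fast myosin heavy chain, had 35.8, 10.5 and 12.9 CPM in VAS+H2O, 5.10, 16.6 and 27.1 in IMQ+H2O, and 0.995, 2.38 and 10.4 in IMQ+XYF. For Acta1 and Ckm, as for the muscle-type subunits, IMQ+XYF replicate 1 was the lowest library and VAS+H2O replicate 3 the lowest of its group. Over the 9 libraries, the log2 level of the muscle-type subunits followed the mean log2 level of the markers closely. Pearson's r was 0.994 for Cox6a2, 0.992 for Cox7a1 and 0.994 for Cox8b, and Spearman's rho was 0.983, 0.983 and 1. The exact permutation p-values (n = 9 libraries) were 5.51e-06, 8.27e-06 and 2.76e-06 for r, each 1.65e-05 after adjustment over the 6 genes compared, and 4.96e-05, 4.96e-05 and 5.51e-06 for rho, 9.92e-05, 9.92e-05 and 3.31e-05 after adjustment. Without the 2 libraries farthest from the median, IMQ+XYF replicate 1 and VAS+H2O replicate 2, r was 0.980, 0.982 and 0.985, and with the group means removed it was 0.999, 0.987 and 0.989.

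For the counterparts, r was −0.33 for Cox6a1 (rho −0.2) and 0.041 for Cox8a (rho 0.15), with exact permutation p-values of 0.388 and 0.925 for r and 0.613 and 0.708 for rho (n = 9). After adjustment they were 0.466, 0.925, 0.708 and 0.708. For Cox7a2, r was 0.72 (rho 0.72) with an exact permutation p of 0.0229 for r and 0.0369 for rho (n = 9), which were 0.0344 and 0.0553 after adjustment. Its r was 0.73 without the same 2 libraries, and 0.22 with the group means removed. Over the 79 tested members other than the muscle-type ones, r with the markers ran from −0.51 to 0.73 with a median of 0.090, and none exceeded 0.9. With the marker score as a covariate in the edgeR fit, the log2 fold changes of Cox6a2, Cox7a1 and Cox8b in IMQ+XYF against IMQ+H2O were 0.26, −0.054 and 0.12, with adjusted p-values of 0.657, 0.986 and 0.938, while that of Cox7a2 was −0.44 (adjusted p 0.426). The muscle-type subunits followed the score so closely that the fit had to shrink their values, so it cannot tell why they differed. The median over all tested members was −0.092 in the same fit. Fewer muscle fibres and less RNA per fibre cannot be told apart here.

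**Figure D5:**
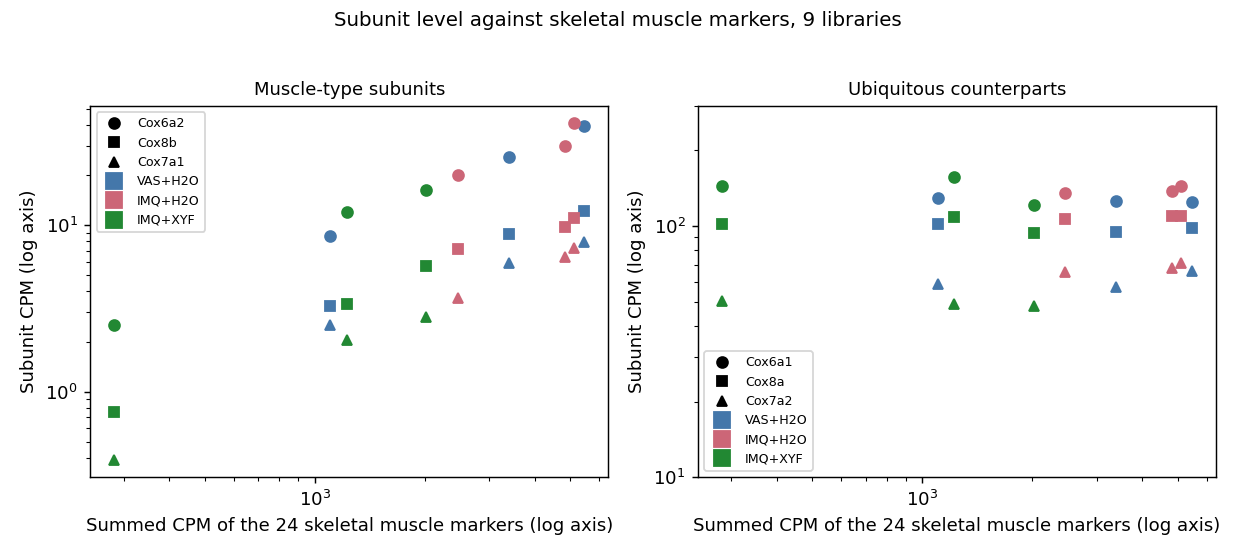
Level of the 3 muscle-type subunits (left) and of their ubiquitous counterparts (right) in CPM against the summed CPM of the 24 skeletal muscle markers, 1 point per library, both axes logarithmic; colour gives the group and shape the gene. The points of each muscle-type subunit follow the markers from 282 to 5467 CPM along 1 line that all groups share. Those of Cox6a1 and Cox8a lie nearly level, and those of Cox7a2 are lowest in the IMQ+XYF libraries.

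Among the other genes of the pathway, the 13 subunits encoded in mitochondrial DNA all had a higher mean in IMQ+H2O than in VAS+H2O, with a median log2 fold change of 0.14. All 13 were lower in IMQ+XYF than in IMQ+H2O, with a median of −0.40, 2 of them at an unadjusted p under 0.05 and 0 called. They summed to 99556 to 118231 CPM in VAS+H2O, 93843 to 138322 in IMQ+H2O and 78255 to 109706 in IMQ+XYF, which overlapped. Of the 6 subunits and carriers that the symbol pattern leaves out, 6 were higher in IMQ+H2O, 1 of them at an adjusted p of 0.05. This was Cycs, cytochrome c, which was named after its values were seen. It had 43.5, 51.4 and 44.4 CPM in VAS+H2O, 77.7, 74.7 and 86.5 in IMQ+H2O, and 83.3, 63.4 and 73.9 in IMQ+XYF, with a log2 fold change of 0.78 in IMQ+H2O (edgeR adjusted p 0.0301) and 0.66 in IMQ+XYF (edgeR adjusted p 0.0413), both against VAS+H2O. Of 44 assembly factors, 30 were higher and 14 lower in IMQ+H2O, 0 of them called, and of 78 mitochondrial ribosomal protein genes 75 were higher, 6 of them at an adjusted p of 0.05 and 1 called. The 17 genes of the citric acid cycle and pyruvate dehydrogenase held 14 higher, the 12 of fatty acid oxidation 10, the 18 of glycolysis 12 and the 82 tested cytosolic ribosomal protein genes 75. Medians of these lists lay between 0.12 and 0.26, and 1 cytosolic ribosomal protein gene reached an adjusted p of 0.05. In IMQ+XYF against IMQ+H2O, 0 genes of these lists passed. There, 25 of 44 assembly factors, 14 of 17 citric acid cycle genes, 10 of 12 fatty acid oxidation genes, 8 of 18 glycolysis genes, 38 of 78 mitochondrial and 74 of 82 cytosolic ribosomal protein genes were lower.

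The 11 listed transcriptional regulators of mitochondrial biogenesis did not pass in any of the 3 comparisons. Their lowest edgeR adjusted p was 0.0657, in IMQ+XYF against VAS+H2O. Ppargc1a, a coactivator that drives respiratory genes and is abundant in muscle and brown fat, had 7.25, 6.64 and 5.29 CPM in VAS+H2O, 16.4, 6.24 and 9.89 in IMQ+H2O, and 2.73, 4.86 and 3.62 in IMQ+XYF. The IMQ+XYF libraries were the lowest 3, with a log2 fold change of −1.54 against IMQ+H2O (unadjusted p 0.00208, edgeR adjusted p 0.36). Its library of highest level was IMQ+H2O replicate 1. The brown fat gene Ucp1, which was named after its values were seen, had at most 0.041 CPM in any library. Esrra, an estrogen-related receptor, had 20.4, 22.8 and 21.5 CPM in VAS+H2O, 20.1, 22.9 and 24.99 in IMQ+H2O, and 26.04, 21.7 and 23.98 in IMQ+XYF. Nrf1, nuclear respiratory factor 1, had 18.5, 16.3 and 16.2 CPM in VAS+H2O, 17.1, 17.8 and 15.5 in IMQ+H2O, and 19.7, 18.9 and 19.8 in IMQ+XYF, and Tfam, the transcription factor of mitochondrial DNA, had 20.8, 18.6 and 20.4 CPM in VAS+H2O, 22.9, 21.1 and 19.8 in IMQ+H2O, and 23.1, 21.5 and 21.6 in IMQ+XYF. Log2 fold changes of these 3 genes lay between −0.017 and 0.21 in the first 2 comparisons, with edgeR adjusted p-values of 0.465 or more.

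Of the 84 members, 29 share exons with another annotated gene, in most cases on the opposite strand, and whether the counting used the strand was not stated. Among the members named here, Cox6a2 overlaps Itgad, Ndufa4l2 overlaps Shmt2, Ndufb11 overlaps Rbm10, Uqcrb overlaps Gm10767, Cox5a overlaps Gm26631, Atp5d overlaps Cbarp, Atp5j overlaps Gabpa, Atp5a1 overlaps Haus1 and Atp5g2 overlaps Mir688. If the strand was not used, reads of both partners cannot be told apart. For Atp5g2, whose partner lies on the same strand, they cannot in either case. The levels of these genes are uncertain to that extent.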

How the data were processed

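Whole-number gene counts were deposited by the authors, 1 column for each of the 9 libraries and all of them used. Per the labels and methods, TruSeq libraries were sequenced on an Illumina HiSeq instrument and aligned with STAR 2.5 to GRCm38, and the processing notes also name FastQC, Cuffnorm and DESeq 1.22.1. The counting tool, its use of strand and its treatment of reads with several alignments are not given in the sources used here.

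From the counts, genes with low counts were removed (filterByExpr), TMM factors computed, and edgeR 4.0.16 quasi-likelihood tests fitted to all 9 libraries at once (R 4.3.3, limma 3.58.1), with Benjamini-Hochberg adjustment over 22430 genes. A call needed an adjusted p of at most 0.05 and a log2 fold change of at least 1 in size, and a laxer rule used the adjusted p alone. DESeq2 1.42.0, DESeq2 size factors, no filter, a fit of only the groups compared, each library left out, a replicate block and a skeletal muscle score as covariate were alternatives. Ratios within libraries used a pseudocount of 0.5 counts and exact permutation tests in R. Correlations with the skeletal muscle markers used exact permutation tests over the 9 libraries (Python 3.11.15, SciPy 1.17.1). The edgeR step was tested on simulated counts.

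The depth of 28756305 to 79836881 counts and the common biological coefficient of variation of 0.296 set the precision. Replicates of a group differed by more than sampling noise, with a chi-square per degree of freedom of 35.7 to 217. Whether the libraries came from separate animals is not stated, so p-values measure only the spread between these samples, which may be technical. The members and gene lists were chosen with earlier results of these data known. Genes were named by a rule: the muscle-type subunits and their counterparts, the 3 lowest p-values per complex in the first 2 comparisons, the highest member per kilobase in each complex, all called members, complex II, Ndufa4l2, Cox4i2, the untested members, and 7 muscle genes and regulators.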

Additional observations from a re-analysis of the deposited data

How the results depend on the processing

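The direction of most values held under the alternatives run. At an adjusted p of 0.05 alone, edgeR placed 0 members in IMQ+H2O against VAS+H2O, and 1.37% of all tested genes. DESeq2 placed 10 members (7.61% of all tested genes), and the fit of only these groups 2 (5.21%). With 1 library left out it was 0 to 3 members (0.114% to 4.29% of all tested genes). In IMQ+XYF against IMQ+H2O it was 1 with DESeq2 (1.98%). In IMQ+XYF against VAS+H2O edgeR placed 1 member (2.02% of all tested genes) and DESeq2 4 (7.89%). The number was 0 in the fit of only these groups (0.152%) and 0 with the muscle score as covariate (0.134%). With 1 library left out it was 0 to 4 (0.0513% to 6.38%). With the covariate, the median log2 fold change of the muscle-type subunits was 0.12 in IMQ+XYF against IMQ+H2O and 0.14 against VAS+H2O, that of Cox6a2 0.26 and 0.37, that of Cox8b 0.12 and 0.14, that of Cox6a1 −0.049 in the first of these, and that of Cox7a1 −0.19 in IMQ+H2O against VAS+H2O. The muscle-type subunits follow the score so closely that the covariate had to shrink their values in both comparisons with IMQ+XYF.

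With each library left out in turn, log2 fold changes had these ranges. In IMQ+H2O against VAS+H2O, the range was 0.16 to 0.26 for the median of complex V, −0.100 to 0.829 for Cox6a2, −0.26 to 0.46 for Cox7a1 and −0.17 to 0.62 for Cox8b. In IMQ+XYF against IMQ+H2O, the range was −0.053 to 0.11 for Sdhd, −0.15 to 0.025 for Cox6b1, −0.18 to −0.025 for the median of complex IV, −0.068 to 0.14 for Cox6a1, −0.12 to −0.024 for the median of all tested members, −0.12 to −0.034 for the median of complex I, −0.12 to 0.017 for the median of complex III, −0.12 to 0.016 for the median of complex V, −0.065 to 0.016 for Atp5a1 and −0.14 to 0.014 for Uqcr10. In IMQ+XYF against VAS+H2O, the range was −0.020 to 0.13 for Atp5a1, 0.039 to 0.15 for the median of complex V, −0.19 to 0.26 for Cox4i2, −0.047 to 0.0997 for Sdhb, 0.042 to 0.14 for the median of all tested members, −0.052 to 0.068 for the median of complex II, 0.084 to 0.24 for the median of complex III, 0.067 to 0.27 for the median of complex IV, −0.095 to 0.036 for Sdhc and −0.0015 to 0.15 for Cox8a.

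Values near 0 changed sign. Sdhd in IMQ+XYF against IMQ+H2O was 0.0088 with DESeq2 and 0.025 without the filter. Sdhb in IMQ+XYF against VAS+H2O was 0.024 with DESeq2, 0.018 with its size factors, 0.011 without the filter, 0.0089 in the fit of only these groups and 0.0037 with the covariate. The cause was not tested.

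With the replicate number as a block, 0 members passed in IMQ+XYF against VAS+H2O, and 0.259% of all tested genes. Cox7a2l then had a log2 fold change of −0.57 and an edgeR adjusted p of 0.0854. Libraries sharing a number did not deviate together, with correlations from −0.18 to 0.12. Such correlations cannot show whether libraries of the same number shared an animal or a batch. The block changed no other count of members at an adjusted p of 0.05.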
